A study of Homo sapiens with 5 samples.

Results

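The 6 long non-coding RNAs described here are MALAT1, NEAT1, TUG1, KCNQ1OT1, OIP5-AS1 and LINC00657, the last also called NORAD. They were taken by name from a table of 24497 gene rows in 5 libraries, and all 6 had a row and passed the filter on low counts that left 9215 genes for testing. MALAT1 and NEAT1 were chosen by their own counts, which vary between these libraries, so their values are given as a description with no test. The libraries were made from HEK293, a long-established cell line of human embryonic kidney origin, grown in DMEM with serum and with no treatment or engineered genotype named. The submitters labelled 2 libraries as batch A and 3 as batch B, and this letter and the prefix of the sample titles are what the labels give to set the groups apart. Each library held the product of 100 cells, primed for reverse transcription with oligo-dT and sequenced from transcript 5' ends. Libraries are named here by the number that ends their column in the deposited table, which gives A2 and A3 for batch A and B1, B2 and B3 for batch B.

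Long non-coding RNAs are transcribed and often spliced and capped like messenger RNAs but code for no known protein. MALAT1 resides in nuclear speckles, bodies rich in splicing factors, and NEAT1 is the RNA on which paraspeckles, another kind of nuclear body, are built. Both come from neighbouring genes, and the 3' ends of MALAT1 and of the long NEAT1 isoform are cut by RNase P at a tRNA-like structure instead of receiving a poly(A) tail. A shorter NEAT1 isoform shares its 5' end and is polyadenylated, so counts of 5' ends do not separate the isoforms. TUG1 has been described with Polycomb proteins, and KCNQ1OT1 is the imprinted antisense transcript that silences genes around KCNQ1 on the paternal chromosome. OIP5-AS1 is known for its site for the microRNA miR-7, and LINC00657 for the Pumilio proteins it binds in the cytoplasm. The libraries were made from whole lysed cells, so they do not show where in the cell an RNA lay.

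Because the counts come from 5' ends, the sequence around each annotated start is shown first. Each run below covers the 50 bases before and the first 50 bases of the transcript, from the RefSeq promoter table on GRCh38.p14, with the transcribed bases in capitals. RefSeq lists a pair of starts for MALAT1 and a single start for TUG1, OIP5-AS1 and LINC00657, and NEAT1 and KCNQ1OT1 were not matched in that table. The deposited counts are per gene and do not separate the MALAT1 starts.
MALAT1 start 1, chr11:65497688-65497787, plus strand: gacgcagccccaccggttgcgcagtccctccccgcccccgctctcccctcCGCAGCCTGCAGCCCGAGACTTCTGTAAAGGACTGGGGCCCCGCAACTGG
MALAT1 start 2, chr11:65498995-65499094, plus strand: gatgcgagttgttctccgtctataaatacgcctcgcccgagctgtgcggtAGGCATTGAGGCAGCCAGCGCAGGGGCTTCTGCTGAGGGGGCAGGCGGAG
TUG1, chr22:30969215-30969314, plus strand: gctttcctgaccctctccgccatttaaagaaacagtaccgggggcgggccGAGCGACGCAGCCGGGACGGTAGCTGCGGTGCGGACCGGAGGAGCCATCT
OIP5-AS1, chr15:41283940-41284039, plus strand: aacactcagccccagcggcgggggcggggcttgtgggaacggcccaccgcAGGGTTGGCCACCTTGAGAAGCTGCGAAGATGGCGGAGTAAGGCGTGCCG
LINC00657, chr20:36050911-36051010, minus strand: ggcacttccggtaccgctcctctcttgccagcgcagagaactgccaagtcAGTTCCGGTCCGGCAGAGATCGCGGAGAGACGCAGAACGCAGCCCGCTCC
The second MALAT1 start was the only one of these 5 with the letters TATAAA in the 50 bases before it, beginning 30 bases upstream. On either strand these letters stood in that window of 3.47% of 35116 RefSeq promoters. A match of letters is a description and shows no bound factor.

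The last 11 bases of the NEAT1 transcript, AAAAAGCAAAA, also occur near the annotated 3' end of MALAT1, searched on the transcribed strand, and these stretches are shown because oligo-dT, the primer used here, pairs with runs of A. The sequences are from the longest GENCODE 29 transcript of each gene on GRCh38, with the A-rich stretch in capitals.
MALAT1: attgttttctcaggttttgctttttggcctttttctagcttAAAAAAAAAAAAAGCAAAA
NEAT1: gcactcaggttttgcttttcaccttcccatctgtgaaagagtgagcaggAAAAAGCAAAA
In MALAT1 the stretch covered positions 8337 to 8355 of 8708, and in NEAT1 it was the end of the transcript, positions 22733 to 22743. Of 8616 tested genes with a transcript sequence, 145 (1.68%) held these letters anywhere. MALAT1 had 1 more match at position 752 and KCNQ1OT1 1 match at position 79019, while TUG1, OIP5-AS1 and LINC00657 had 0. These matches are to the letters of the NEAT1 end and do not cover all runs of A. The longest run of A alone was 29 bases in OIP5-AS1 and KCNQ1OT1, 22 in NEAT1 and 18 in TUG1. It was 13 in MALAT1 and 10 in LINC00657, so TUG1 and OIP5-AS1 held longer runs than MALAT1. No count in the table shows where priming took place.

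In LINC00657 the core bound by Pumilio proteins, TGTA followed by any base and ATA, occurred 15 times on the transcribed strand. Of these, 10 were TGTATATA, 4 were TGTAAATA and 1 was TGTACATA. That came to 2.81 per kb, and over the tested transcripts 36.1% held at least 1 such match. MALAT1 held 0, NEAT1 6, TUG1 2, KCNQ1OT1 9 and OIP5-AS1 1. In OIP5-AS1 the reverse complement of the miR-7 seed, GTCTTCC, occurred 3 times, and KCNQ1OT1 held it 6 times. The other 4 RNAs held 0 matches, and 28.2% of tested transcripts held at least 1. The OIP5-AS1 match below, at positions 2865 to 2894, pairs with miR-7 over 14 further consecutive bases. In miR-7, from RefSeq, capitals mark the seed, and in OIP5-AS1 they mark the seed match and the 14 further consecutive bases.
miR-7: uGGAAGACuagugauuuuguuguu
OIP5-AS1: taagAACAACAAAATCACcaatGTCTTCCa

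The RNAs also share features of their transcripts that played no part in choosing them. By GENCODE 29, matched by name, MALAT1, NEAT1, KCNQ1OT1 and LINC00657 have a longest transcript of 1 exon, while TUG1 has 3 exons and OIP5-AS1 has 4. Of 8617 tested genes with an annotation, 395 (4.58%) had a single exon. The transcripts measured 8708 bases for MALAT1, 22743 for NEAT1, 7469 for TUG1, 91667 for KCNQ1OT1, 8829 for OIP5-AS1 and 5339 for LINC00657. Each was longer than the median of 3700 bases, and KCNQ1OT1 was the longest annotated transcript of any tested gene. Their GC content ran from 38.4% in OIP5-AS1 to 44.1% in NEAT1, against a median of 47.4%. The counts are of 5' ends and are not divided by length, so levels are compared between libraries and not between genes.

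The libraries held 373687 to 803168 gene counts, so that 3 counts, taken as the limit for a gene at 0, are worth 3.74 to 8.03 CPM, the count of a gene scaled to 1000000 gene counts per library. The sample records give 1000 cells lysed and 20000 spike-in molecules per cell for both batches alike. Spike-in RNAs nevertheless had 1785 counts in A2 and 2127 in A3, against 13, 1 and 19 in B1, B2 and B3. Mitochondrially encoded messenger RNAs took 2.54% to 2.80% of counts in A2 and A3, and 3.16% to 4.55% in the batch B libraries. Of the markers described for HEK293 cells, 5 of 7 passed the filter, led by VIM, an intermediate filament protein, with summed levels of 618 to 626 CPM for batch A against 692 to 779 CPM for batch B. Markers of blood and immune cells summed to 2.49 to 12.2 CPM with CD3E at 0 in all libraries, and those of fibroblasts and endothelium to 4.37 to 21.9 CPM with COL1A2, THY1 and PDGFRB at 0. The labels do not say whether libraries came from separate cultures, so the p-values below reflect no more than how far these libraries spread. In bulk samples, fewer cells with an RNA and less of it per cell cannot be told apart. Batch letter, spike-in content and mitochondrial share moved together, and their parts in any difference between the batches cannot be told apart.

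MALAT1, the speckle RNA, had 36 counts in A2, 107 in A3, 70 in B1, 83 in B2 and 113 in B3. These are levels of 52.4, 133, 187, 144 and 165 CPM. A2 stood low and B1 was the highest, and every batch B library lay above both batch A libraries. The level averaged 92.8 ± 57.1 CPM for batch A (SD, n = 2) against 165 ± 21.6 CPM for batch B (SD, n = 3). The fitted difference, batch B over batch A, was 0.79 on the log2 scale (SE 0.16), or 1.73-fold. That SE rests on a spread pooled over genes, whereas A3 alone was 2.54-fold above A2, with an exact 95% interval of 1.73 to 3.82 that covers counting error only. Against A3 alone the batch B mean was 1.24-fold higher, and without A2 the fitted log2 difference was 0.34, against 1.64 without A3. The size of the MALAT1 difference thus depended on which batch A library was kept.

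NEAT1, the paraspeckle scaffold, had 138 counts in A2, 272 in A3, 171 in B1, 190 in B2 and 216 in B3. Its levels were 201, 339, 458, 330.2 and 315 CPM. A2 was again the lowest and B1 the highest, but A3 lay above B2 and B3, so the batches overlapped. The means were 269.8 ± 97.4 CPM for batch A (SD, n = 2) against 368 ± 78.2 CPM for batch B (SD, n = 3), and the fitted log2 difference was 0.41 (SE 0.11), or 1.33-fold. A3 was 1.69-fold above A2, with an exact 95% interval of 1.37 to 2.08, and the batch B mean was 1.09-fold that of A3. The log2 difference was 0.13 without A2, 0.83 without A3 and 0.25 without B1.

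The ratio of NEAT1 to MALAT1 counts was 3.83 in A2 (exact 95% interval 2.64 to 5.70), 2.54 in A3, 2.44 in B1, 2.29 in B2 and 1.91 in B3. Relative to its own level elsewhere, MALAT1 was further down in A2 than NEAT1, although the interval in A2 overlaps that of A3, 2.03 to 3.21. Together MALAT1 and NEAT1 came to 253 CPM in A2, 472 in A3, 645 in B1, 474 in B2 and 480.2 in B3. The summed level of the other 4 RNAs was 358 CPM in A2, 354 in A3, 399 in B1, 393 in B2 and 412 in B3. The low value of A2 was therefore seen in the sum of MALAT1 and NEAT1 and not in the sum of the other 4. Since MALAT1 and NEAT1 were chosen for varying, this contrast describes the choice. The sum also hides single RNAs, as KCNQ1OT1 (8.74 CPM) and OIP5-AS1 (93.2 CPM) were lowest in A2, and TUG1 and LINC00657 in A3.

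**Figure D1:**
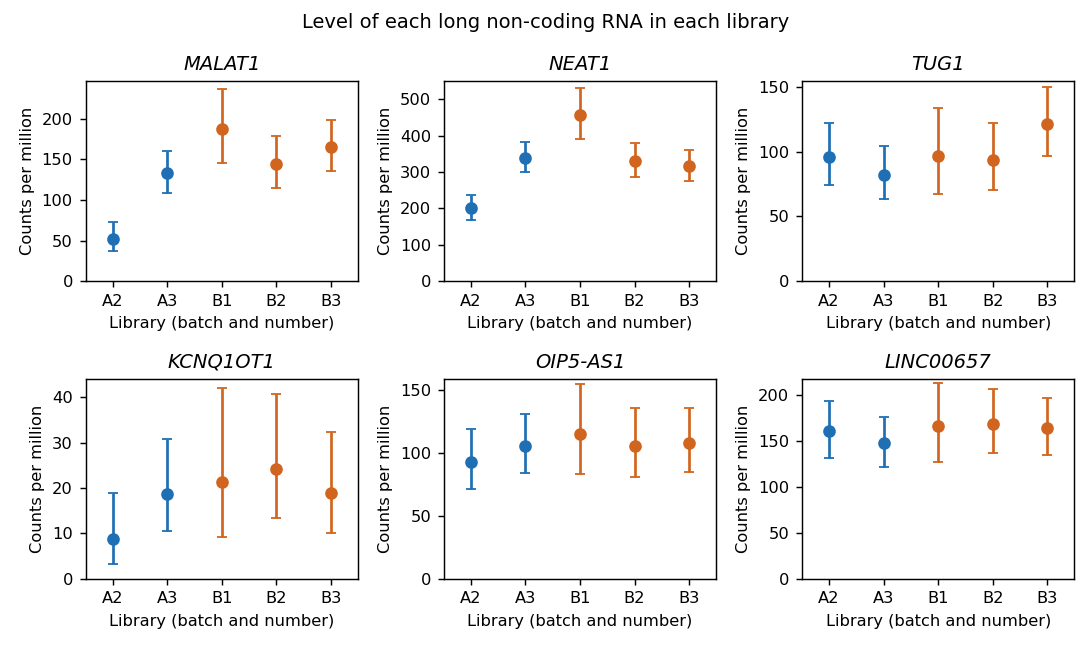
Level of each RNA in CPM (vertical axes, from 0, one scale per panel) in the 2 batch A libraries (blue) and 3 batch B libraries (orange), with exact 95% intervals for counting error. MALAT1 at 52.4 CPM and NEAT1 at 201 CPM are lowest in A2, while LINC00657 stays between 147 and 169 CPM.

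TUG1, a widely expressed RNA described with Polycomb proteins, had 66 counts in A2, 66 in A3, 36 in B1, 54 in B2 and 83 in B3. Its levels were 96.1, 82.2, 96.3, 93.8 and 121 CPM. B3 stood highest, A3 lowest, and the batches overlapped because A2 lay above B2. The means were 89.1 ± 9.84 CPM for batch A (SD, n = 2) against 104 ± 15.1 CPM for batch B (SD, n = 3). The log2 difference of 0.27 (SE 0.18) had an edgeR adjusted p of 0.483, from the quasi-likelihood test and adjusted by Benjamini-Hochberg over all tested genes.

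KCNQ1OT1, the imprinted antisense RNA, was counted 6 times in A2, 15 in A3, 8 in B1, 14 in B2 and 13 in B3. That gave 8.74, 18.7, 21.4, 24.3 and 18.97 CPM. A2 was the lowest and every batch B library lay above both batch A libraries, though B3 exceeded A3 by less than counting error. The means were 13.7 ± 7.03 CPM (SD, n = 2) and 21.6 ± 2.68 CPM (SD, n = 3), with a log2 difference of 0.63 (SE 0.45) and an edgeR adjusted p of 0.531. A3 was 2.14-fold above A2, with an exact 95% interval of 0.784 to 6.73, so at this depth a difference of the size seen for MALAT1 was not detectable in KCNQ1OT1. The gene lies antisense within KCNQ1, and whether counting used strand is not given in the sources used here, so reads of the pair cannot be told apart. KCNQ1 itself had 1 count in A2, 1 in B1 and 0 in the other libraries.

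OIP5-AS1, the RNA with the miR-7 site shown above, had 64 counts in A2, 85 in A3, 43 in B1, 61 in B2 and 74 in B3. Its levels were 93.2, 106, 115, 106 and 108 CPM. A2 was the lowest and B1 the highest, and the batch B libraries lay above both batch A libraries by a small margin. Means of 99.5 ± 8.95 CPM (SD, n = 2) and 109.7 ± 4.76 CPM (SD, n = 3) gave a log2 difference of 0.15 (SE 0.17) and an edgeR adjusted p of 0.744. OIP5-AS1 overlaps OIP5 on the opposite strand, and without known strand use their reads cannot be told apart. OIP5 showed a log2 difference of -0.14 with an edgeR adjusted p of 0.842.

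LINC00657, the Pumilio-binding RNA, had 110 counts in A2, 118 in A3, 62 in B1, 97 in B2 and 112 in B3. Its levels of 160.1, 147, 166, 169 and 163 CPM were the steadiest of the 6. A3 was the lowest and B2 the highest, and batch B lay above both batch A libraries. The means were 154 ± 9.35 CPM (SD, n = 2) and 166 ± 2.55 CPM (SD, n = 3), with a log2 difference of 0.14 (SE 0.14) and an edgeR adjusted p of 0.696.

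The highest library exceeded the lowest 3.57-fold for MALAT1, 2.79-fold for KCNQ1OT1, 2.28-fold for NEAT1, 1.47-fold for TUG1, 1.23-fold for OIP5-AS1 and 1.15-fold for LINC00657. All 6 had a higher fitted level in batch B, as did 50.4% of tested genes. Fitted levels were also higher in batch B under every alternative analysis in which the RNAs could be fitted, but MALAT1 and NEAT1 came closest to 0 without A2. The median log2 difference was 0.34 over the 6, which include MALAT1 and NEAT1, chosen for varying, and 0.21 over the other 4, against 0.004 over all tested genes. For MALAT1, KCNQ1OT1, OIP5-AS1 and LINC00657, 4 of 6, every batch B library lay above both batch A libraries, and this was so for 13.5% of tested genes, or 31.3% when either order of the batches is counted. A2 was the lowest of the 5 libraries for MALAT1, NEAT1, KCNQ1OT1 and OIP5-AS1, and for 21.0% of tested genes. Because MALAT1 and NEAT1 were chosen for varying, nothing is read from their places in these counts. Among the other 4 RNAs the counts are 3 without overlap and 2 lowest in A2. In each of these 3, the nearest libraries of the batches differed by less than counting error. Of the 4 RNAs with a test, 0 passed an adjusted p of 0.05, which 4.20% of tested genes did. None of the 4 had an unadjusted p under 0.05, against 1514 of 9215 genes, and DESeq2 and limma-voom called 0 of them.

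**Figure D2:**
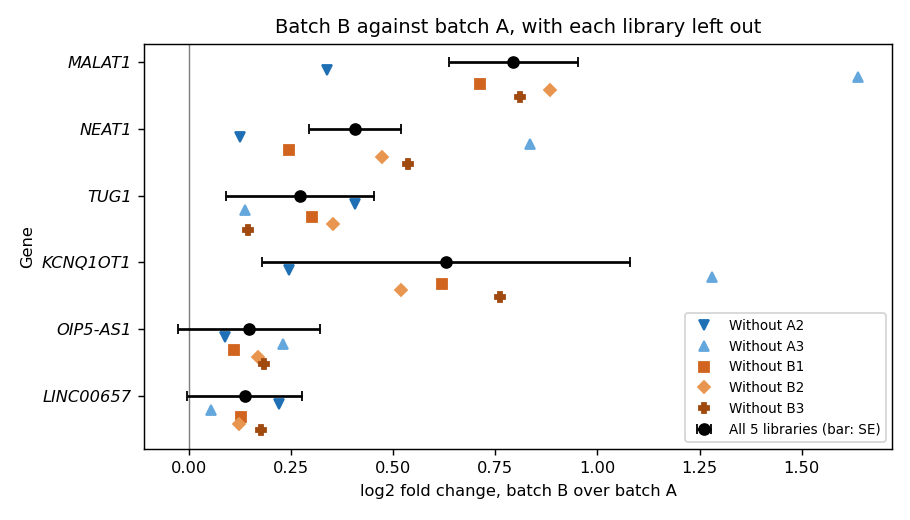
Fitted log2 difference of batch B over batch A (horizontal axis) for each RNA, with all 5 libraries (black, bars are SE) and with each library left out in turn (coloured symbols). MALAT1 moves from 0.79 to 0.34 without A2 and to 1.64 without A3, while OIP5-AS1 and LINC00657 stay close to 0.

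The spread between the batch A libraries was set beside that of other genes. Among 2722 tested genes with a mean count of at least 50, the log2 ratio of A3 to A2, computed on CPM + 1, had a median of -0.003, and 95% of genes lay between -0.41 and 0.46. Ranked from the highest ratio, MALAT1 took place 2 with 1.33 and NEAT1 place 12 with 0.75. OIP5-AS1 came at place 533 with 0.18, LINC00657 at 2084 with -0.12 and TUG1 at 2428 with -0.22, all inside that range. KCNQ1OT1 fell under the count minimum. The only gene above MALAT1 was EMC3-AS1, an antisense RNA, with 24 counts in A2, 116 in A3, 36 in B1, 57 in B2 and 67 in B3. Its level of 34.9 CPM in A2 and 144 CPM in A3 lay on both sides of the 96.3 to 99.0 CPM of batch B, whereas MALAT1 in A3, at 133 CPM, stayed below all batch B libraries. Since MALAT1 and NEAT1 were chosen for varying, these places describe the choice.

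The pattern was also set beside genes of like count. Over 1447 genes with counts near those of MALAT1, the log2 ratio of A3 to A2 had a median of 0.02 and a 95% range of -0.42 to 0.48. Over 612 genes with counts near those of NEAT1 the median was -0.01 and the range -0.26 to 0.32. Within batch B, NEAT1 in B1 exceeded B3 by 0.54 on the log2 scale, while genes of like count had a median of -0.07 and a range of -0.51 to 0.28. MALAT1 in B1 exceeded B3 by 0.18, inside the range of -0.74 to 0.46 for its genes of like count. B1 was the shallowest library. In the gene rows next to MALAT1 in mean CPM, the highest library exceeded the lowest 1.11-fold for USP14, 1.27-fold for ATPAF1, 1.04-fold for FYTTD1 and 1.90-fold for EIF2S1. These values too describe MALAT1 and NEAT1 as RNAs chosen for varying, and support nothing beyond that choice.

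**Figure D3:**
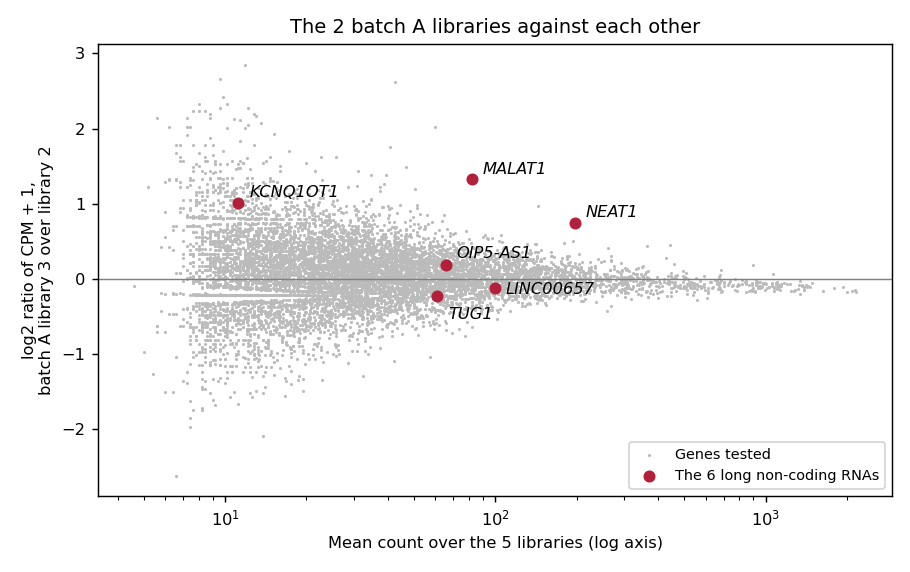
Log2 ratio of CPM + 1 in batch A library 3 over library 2 (vertical axis) against the mean count over the 5 libraries (log axis) for tested genes (grey) and the 6 RNAs (red). MALAT1 at 1.33 and NEAT1 at 0.75 lie above the genes of like count, while TUG1, OIP5-AS1 and LINC00657 lie among them.

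Genes whose levels followed those of MALAT1 and NEAT1 most closely were named by the root mean square difference of centred log2(CPM + 1) over the 5 libraries, among 2721 other genes with a mean count of at least 50. The closest to MALAT1 was NEAT1 itself, at 0.33. Both were chosen for varying between these libraries, so that place describes the choice. Next came GSK3A, a protein kinase, FLNA, an actin crosslinker, ARL2, a small GTPase, and EMD, the inner nuclear membrane protein emerin, each at 0.35. The closest to NEAT1 were ATRX, a chromatin remodeller, at 0.10, AKAP1, a mitochondrial kinase anchor, at 0.13, TMEM245, a membrane protein, at 0.14, TFDP2, a partner of E2F factors, at 0.15, and THOC2, an mRNA export subunit, at 0.16. With a minimum count of 20 in place of 50, 0 of the 5 genes were kept for either RNA, and the nearest were APOLD1 for MALAT1, at 0.03, and APP for NEAT1, at 0.04. These lists rest on 5 libraries and describe them only.

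**Figure D4:**
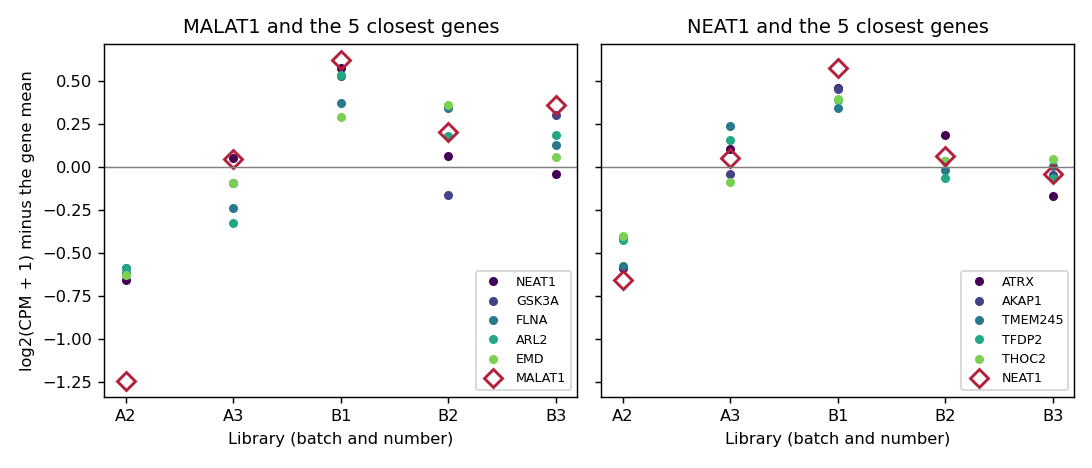
Centred log2(CPM + 1) in each library for MALAT1 (left, open diamonds) and NEAT1 (right, open diamonds) with the 5 genes closest to each (filled points). No gene of the left panel is as low in A2 as MALAT1, and those of the right panel lie near NEAT1 in all libraries, within 0.10 to 0.16 by root mean square.

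Genes that neighbour the 6 RNAs in GENCODE order were read from the same fit. Near NEAT1, FRMD8 had a log2 difference of 0.09 (edgeR adjusted p = 0.945). Beside TUG1, the divergent gene MORC2, a chromatin ATPase, had 0.63 (edgeR adjusted p = 0.227), and SMTN, an actin-binding protein, had -0.65 (edgeR adjusted p = 0.358). Near KCNQ1OT1, TSSC4 had 0.52 (edgeR adjusted p = 0.568) and CDKN1C, an imprinted inhibitor of the cell cycle, 0.01 (edgeR adjusted p = 0.997). NUSAP1, a spindle protein near OIP5-AS1, rose by 0.45 (SE 0.14, edgeR adjusted p = 0.0439). That call was kept in 3 of 12 alternatives, where the adjusted p ran from 0.0194 to 0.668, and it was lost without A2, A3, B2 or B3. CHP1, on the other side of OIP5-AS1, had 0.16 (edgeR adjusted p = 0.770). Near LINC00657, SCAND1 had 0.42 (edgeR adjusted p = 0.285) and EPB41L1 -0.39 (edgeR adjusted p = 0.715). The remaining neighbours are not described, most of them being too low in count to be tested.

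Genes for proteins of the nuclear bodies were read next, and most did not pass the test between the batches. Of 21 paraspeckle proteins tested, 0 rose and 1 fell, with a median log2 difference of 0.07, where 2.15% of all tested genes were called higher and 2.05% lower. The one that fell was PSPC1, a core paraspeckle protein, with 30 and 39 counts in A2 and A3 and 12, 12 and 7 in B1, B2 and B3. Its log2 difference was -1.24 (SE 0.33, edgeR adjusted p = 0.0104), with no overlap between batches. The edgeR call was lost without A2 (adjusted p = 0.0772), A3 (0.177) or B3 (0.218), and the adjusted p ran from 0.00215 to 0.218 over 11 alternatives. Its partners SFPQ and NONO had log2 differences of -0.07 (edgeR adjusted p = 0.840) and 0.06 (edgeR adjusted p = 0.878), and were named after their values were seen. Of 26 nuclear speckle proteins, 1 rose and 0 fell, with a median of 0.06. This was SRRM2, a large scaffold protein of speckles, with 61 counts in A2 and 91 in A3, against 51, 98 and 98 in B1, B2 and B3. It rose by 0.59 (SE 0.16, edgeR adjusted p = 0.00999), and the call was lost in 4 of 12 alternatives. These were DESeq2 (adjusted p = 0.454), thinning to the smallest library (0.192) and the fits without B2 (0.146) or A2. The smallest adjusted p was 0.00450, and without A2 the log2 difference was 0.46.

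Of 11 tested genes for the enzymes that cut the MALAT1 3' end, 0 rose and 1 fell, where 2.05% of all tested genes were called lower, and their median was -0.11. POP1, the large protein subunit of RNase P, had 42 counts in A2 and 55 in A3, against 11, 21 and 27 in B1, B2 and B3. It fell by 0.83 on the log2 scale (SE 0.25, edgeR adjusted p = 0.0331). The edgeR call was lost when any library was left out in turn, and it was kept in 4 of 12 alternatives. Over the 12 alternatives the adjusted p ran from 0.0298 to 0.570. The m6A machinery writes, reads or erases a methyl mark carried by MALAT1. Of its 17 tested genes 0 passed and the median was -0.11, with 3 at an unadjusted edgeR p under 0.05 (16.4% over all tested genes). DESeq2 called 0 of them and limma-voom 1. Other alternatives called 1 with library totals, 1 with a mean count of at least 20, 1 without B3 and 2 after thinning to the smallest library. HNRNPA2B1, a reader of the mark, had a log2 difference of 0.15 (edgeR adjusted p = 0.558), and HNRNPC, which binds RNA opened by it, had -0.10 (edgeR adjusted p = 0.710).

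For LINC00657, 0 of 8 tested genes for proteins that bind it passed, with a median of 0.31 and 4 at an unadjusted edgeR p under 0.05, a level that 16.4% of all tested genes reached. RBMX, an RNA-binding protein, had -0.04 (edgeR adjusted p = 0.917) and KHDRBS1, known as SAM68, had 0.19 (edgeR adjusted p = 0.415). For TUG1 and KCNQ1OT1, 0 of 12 tested chromatin modifiers passed, with a median of 0.19 and 6 at an unadjusted edgeR p under 0.05. RBBP4 and RBBP7, histone-binding subunits of Polycomb complexes, had -0.06 (edgeR adjusted p = 0.864) and 0.23 (edgeR adjusted p = 0.228). In the imprinted domain of KCNQ1OT1, 0 of 5 tested genes passed, with a median of 0.08 and 0 at an unadjusted edgeR p under 0.05. CD81, a tetraspanin, had 0.08 (edgeR adjusted p = 0.771) and NAP1L4, a histone chaperone, 0.14 (edgeR adjusted p = 0.671). Of 3 genes linked to OIP5-AS1, 0 passed, with a median of -0.14 and 0 at an unadjusted edgeR p under 0.05. ELAVL1, which binds the RNA, had -0.19 (edgeR adjusted p = 0.478), and HNRNPK, which hosts a miR-7 precursor, had 0.11 (edgeR adjusted p = 0.669). DESeq2 and limma-voom called 0 genes of these lists. Of the proteins that bind LINC00657, 1 was called with a mean count of at least 20 and 1 without B1.

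Heat shock genes were read because HSF1, the factor that induces them, also activates NEAT1. Of 12 tested, 2 rose and 0 fell, with a median of 0.16, where 2.15% of all tested genes were called higher and 2.05% lower. HSPB1, a small heat shock protein, had 164 counts in A2 and 199 in A3, against 125, 209 and 252 in B1, B2 and B3, or 243 ± 6.37 CPM (SD, n = 2) and 355 ± 18.0 CPM (SD, n = 3). It rose by 0.58 (SE 0.11, edgeR adjusted p = 7.52e-05) and kept its call in 11 of 12 alternatives, the exception being DESeq2 (adjusted p = 0.0644). HSP90AA1, a chaperone, rose by 0.40 (SE 0.12, edgeR adjusted p = 0.0247), a call kept in 6 of 12 alternatives. It was lost without A2, A3, B1 or B2, with DESeq2 (adjusted p = 0.0914) and with thinning to the smallest library (0.0556). The smallest adjusted p was 0.000971, with limma-voom. HSPB1 was below every batch B library in both A2 and A3, and its batch A libraries lay closer together than those of MALAT1 or NEAT1.

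Of 23 RNAs made without a poly(A) tail in the table, 4 passed the filter. These 4 differed between the batch A libraries in the same direction as MALAT1, and 2 of them had a mean count of at least 20. They are small structural RNAs of the signal recognition particle, of the 7SK complex that holds back transcription elongation, and of vault particles. The log2 ratio of A3 to A2 was 1.27 for RN7SL1, 1.16 for RN7SK, 0.97 for RN7SL2 and 0.84 for VTRNA1-3, with a median of 1.06, against 0.03 over all tested genes. RN7SL2 had 129 counts in A2, 296 in A3, 54 in B1, 108 in B2 and 130 in B3, or 188, 369, 145, 188 and 189.7 CPM. Here A3 stood high and A2 lay among the batch B libraries, whereas for MALAT1 it was A2 that stood low. RN7SL2 fell by 0.65 (SE 0.12, edgeR adjusted p = 3.09e-05), but without A3 the log2 difference was -0.07. Its call was kept in 9 of 12 alternatives, and lost without A3, with DESeq2 (adjusted p = 0.803) and with thinning to the smallest library (0.0862). Near-identical copies of this RNA exist, so its count is uncertain. VTRNA1-3 rose by 1.80 (SE 0.46, edgeR adjusted p = 0.00541) from 4 and 9 counts to 8, 21 and 21, a call lost without A2 (adjusted p = 0.170) or B2 (0.0593), within 0.00354 to 0.170 over 9 alternatives. VTRNA1-3 passed the filter on low counts through batch B libraries alone, so its difference and adjusted p are a description only. It had an adjusted p in 9 of 12 alternatives. The part that tail-less RNA plays in the MALAT1 and NEAT1 values was not tested.

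Other well known spliced long non-coding RNAs were read from the same fit. Of 22 tested, 0 passed in edgeR, DESeq2 or limma-voom, where edgeR called 4.20% of all tested genes, and 1 passed with library totals. An unadjusted edgeR p under 0.05 was reached by 5 of the 22 and by 16.4% of all tested genes. The median log2 difference of the 22 was -0.08, with a median log2 ratio of A3 to A2 of 0.03. SNHG5 and SNHG8, host transcripts of small nucleolar RNAs, had differences of -0.25 (edgeR adjusted p = 0.182) and -0.24 (edgeR adjusted p = 0.223). Their batch A libraries lay above all batch B libraries, the opposite order to LINC00657.

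**Figure D5:**
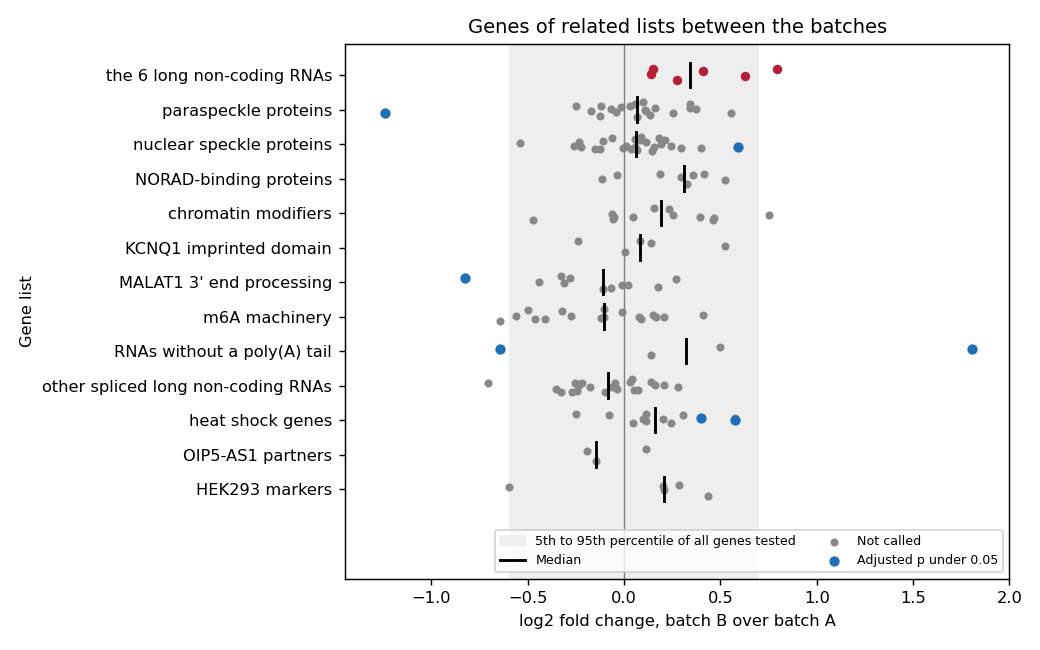
Fitted log2 difference of batch B over batch A (horizontal axis) for the tested genes of each list, with genes at an adjusted p under 0.05 in blue, list medians as black bars and the 6 RNAs in red, which carry no call. The grey band spans the 5th to the 95th percentile of all tested genes, and list medians run from -0.14 for genes linked to OIP5-AS1 to 0.34 for the 6 RNAs, of which MALAT1 and NEAT1 were chosen for varying.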

How the data were processed

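The deposited table gives counts per gene for each library, whole numbers with no normalization, in 24497 gene rows and 52 spike-in rows. Per the submitters' processing notes, the authors used cutadapt 1.2.1 and STAR 2.4.0a with hg19 and GRCh37, and they do not say how reads were counted, on which strand, or whether molecular identifiers were collapsed. CPM is a gene's count divided by the library's gene total, without spike-ins, and depth was 373687 to 803168.

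Batch B was compared with batch A in edgeR 4.0.16 (R 4.3.3) with TMM scaling, filterByExpr and the quasi-likelihood test with batch as the only term. Benjamini-Hochberg adjustment covered all 9215 genes tested, which hold 97.1% of gene counts, with calls made at an adjusted p under 0.05. Since edgeR estimated infinite prior degrees of freedom, SEs rest on spread pooled over genes. Intervals are exact Clopper-Pearson at 95% and cover counting error only.

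The 6 RNAs and the 14 gene lists were chosen with earlier results of these data known, so list counts are descriptions. Named genes are the 6 RNAs, up to 3 called genes of each list by smallest p, or the 2 of highest CPM where 0 were called, the 5 genes closest in pattern to MALAT1 and to NEAT1, the 2 neighbours on each side of each RNA, and the 2 genes above and below MALAT1 in CPM; 2 of the genes so named are not reported here. Listed genes with no row (KCNQ1DN, TRPM5, RPP14, RNU2-1, RNU6ATAC, PTPRC, HBB, PECAM1, CDH5, MEG3, FIRRE, RMST and SRSF10) were not analysed here. Transcript features came from GENCODE 29 by name, on another build than the counts, and start sequences from RefSeq on GRCh38.p14, so no coordinate comes from the deposited files. Alternatives were DESeq2 1.42.0 (size factors and Wald test), library totals, limma 3.58.1 (voom), other count filters, thinning to the smallest library in 1 seeded draw, and leaving out each library.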

Additional observations from a re-analysis of the deposited data

How the results depend on the processing

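Between the batches, 387 of 9215 genes passed the test, 198 higher and 189 lower in batch B. The count was 41 with the DESeq2 Wald test, which left 5820 genes with an adjusted p, and 164 with libraries thinned to one depth. With 1 library left out it ran from 138 without A2 to 333 without B3, with 152 without A3, 302 without B1 and 202 without B2. Fits without A2 or A3 take the spread of the single batch A library left from batch B. It was 375 with DESeq2 size factors, 410 with library totals, 355 with limma-voom, 259 with no filter and 407 with a mean count of at least 20, so these 5 stayed within 1.5 times.

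All 6 RNAs kept a log2 difference above 0 in each of 12 alternatives (10 for KCNQ1OT1, too low in count for the other 2). The range was 0.34 to 1.64 for MALAT1, 0.13 to 0.83 for NEAT1, 0.14 to 0.47 for TUG1, 0.25 to 1.28 for KCNQ1OT1, 0.09 to 0.44 for OIP5-AS1 and 0.04 to 0.22 for LINC00657. For the 4 with a test the smallest adjusted p was 0.342. Of 144 counts of called genes per list, 106 stayed within 1.5 times and 38 moved, and the cause was not tested. In 7 lists the main fit called 0 genes, and a 0 that remained 0 is counted as staying. Where the main fit called genes, the count moved more often. It did so in 4 of 12 alternatives for paraspeckle proteins and 5 for nuclear speckle proteins. For RNAs without a poly(A) tail and for heat shock genes it moved in 6 each, and for MALAT1 3' end processing in 7. No paired analysis was possible because the deposited columns of batch A end in 2 and 3 while its labels number the replicates 1 and 2, so the columns carry no labelled replicate number. Depth limits KCNQ1OT1 most, at 6 to 15 counts per library.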

Other observations

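By name, 18070 of 24497 gene rows matched GENCODE 29, and the rest were given no class. Beyond the 6 RNAs, 976 of the matched rows were of a long non-coding class, and 85 of them passed the filter on low counts. Of these 2 were called higher, 0 lower and 83 did not pass, where 2.15% of all tested genes were called higher and 2.05% lower. The median log2 difference of the 85 was -0.06. ZNF503-AS2, an antisense RNA, had 7 counts in A2 and 11 in A3, against 10, 21 and 27 in B1, B2 and B3. It passed the filter on low counts through batch B libraries alone. Its log2 difference of 1.55 (SE 0.41, edgeR adjusted p = 0.00797) is therefore a description only. That call was kept in 6 of 10 alternatives, with adjusted p from 0.00623 to 0.132, and was lost without A2, A3 or B3. AC138123.2 rose by 0.37 (SE 0.11, edgeR adjusted p = 0.0381), kept in 6 of 12 alternatives, with adjusted p from 0.000642 to 0.423, and was lost without A2, A3, B2 or B3. Both were named after their values were seen. A2 was the lowest library for 17 of the 85 (20.0%), against 21.0% of all tested genes. The 6 RNAs took 6.37% of the counts of the matched rows of this class in A2, 8.05% in A3, 10.6% in B1, 8.57% in B2 and 8.57% in B3. They include MALAT1 and NEAT1, chosen for varying.

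Long and single-exon transcripts were looked at across all other tested genes. The median log2 difference was -0.03 over 1546 genes with a longest transcript under 2000 bases, 0.004 over 4447 genes of 2000 to 5000 bases, 0.01 over 1820 genes of 5000 to 8000 bases and 0.06 over 798 genes of at least 8000 bases. Over 391 single-exon genes it was 0.13, with a median log2 ratio of A3 to A2 of 0.01. Genes are not independent replicates.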
